A study of Homo sapiens with 8 samples.

Results

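The subject here is the departure of a drug combination from additivity in NCI-H1975, an established human cell line from a lung adenocarcinoma with a mutant EGFR receptor. Cells received both drugs together, osimertinib alone, alpelisib alone or vehicle (DMSO) for 24 hours, and each treatment was given with and without L-histidinol. Osimertinib, a covalent inhibitor of mutant EGFR, was used at 10 nM, alpelisib, an inhibitor of the alpha catalytic subunit of PI3K, at 1 µM, and L-histidinol, a histidine analog that blocks the charging of histidine tRNA, at 2 mM. Total RNA of each of the 8 conditions was read on 1 Affymetrix 3′ expression array, and the sources used here do not say whether the conditions were separate cultures.

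The departure of a gene is its log2 intensity with both drugs minus that with osimertinib, minus that with alpelisib, plus that with vehicle. A value of 0 means that the combination sits where the single-drug effects add up on the log2 scale, that is, where their fold changes multiply. All 8 arrays of the series entered, 4 with and 4 without L-histidinol, so each of 19775 genes had 2 departures that shared no array. A gene was counted as having a direction for a drug when that drug's effect had the same sign with and without L-histidinol and averaged at least 0.25 log2 units in size. Where both drugs pushed a gene the same way, a departure in that direction was called supra-additive and one against it sub-additive. Because the departure uses the single-drug and vehicle arrays, the single-drug effects and the departure share arrays and are given side by side as a description.

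EGFR signals through 2 main arms, the RAS-ERK kinases and PI3K-AKT. ERK drives immediate early genes, cyclin D1 and its own feedback inhibitors, while AKT keeps FOXO transcription factors out of the nucleus. Both arms feed into the G1/S step, at which E2F factors turn on the genes of DNA replication, and through it into the later wave of mitotic genes.

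The arrays had median intensities between 21.8 and 22.4 and quartiles that nearly coincided. The median log2 intensity over genes was lowest with vehicle and highest with both drugs in each L-histidinol state. Without L-histidinol it was 5.76 with vehicle, 5.86 with osimertinib, 5.84 with alpelisib and 5.88 with both drugs. With L-histidinol it was 5.74 with vehicle, 5.85 with osimertinib, 5.83 with alpelisib and 5.88 with both drugs. The ratio of 3′ to 5′ signal of ACTB, a measure of RNA integrity, was 1.10 to 1.15 on the 4 arrays with L-histidinol and 1.04 to 1.07 on the 4 without. The same ratio of GAPDH was not higher with L-histidinol, at 0.97 to 0.98 with it and 0.98 to 1.01 without. Of the 15 epithelial and lung genes checked for the cell label, 0 had a mean log2 intensity below 5 and their median was 10.18, whereas 7 of the 12 measured markers of other cell types were below 5, with a median of 4.56. COL1A1, a fibroblast collagen, was the highest of those markers, at 9.14 on its brightest probe set. Its other probe sets ranged from 3.84 to 7.30. With 1 array per condition, p-values measure only the spread between these arrays around an additive fit of L-histidinol and drug treatment, so precision is limited by how few arrays there are.

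Departures were mostly small and more often shared between both L-histidinol states than not. The standard deviation over genes was 0.25 log2 units with L-histidinol and 0.26 without. In 11715 of 19775 genes (59.2%) the departure had the same sign in both states, negative in 6690 (33.8% of all genes) and positive in 5025 (25.4%). At a mean log2 intensity of at least 5 the share with 1 sign was 64.7% of 11627 genes. Across genes the 2 departures correlated at r = 0.23, and at r = 0.44 over the 11627 brighter genes, as a description in which genes are not independent replicates. The direction of the split rests on the scaling between arrays. With each array centred on its median, 39.9% of the genes with 1 sign were negative, and with quantile normalization 49.9%, against 57.1% as deposited.

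Larger departures carried over from one set of 4 arrays to the other. Among brighter genes, 253 had a departure below -0.5 with L-histidinol, and 228 of them (90.1%) were also negative without it, where 54.8% of all brighter genes were. Chosen without L-histidinol instead, 279 of 344 such genes (81.1%) were negative with it, against 59.2% of all brighter genes. For positive departures above 0.5 the shares were 85 of 108 (78.7%, against 45.2%) when chosen with L-histidinol and 95 of 117 (81.2%, against 40.8%) when chosen without. In all, 185 genes (0.936%) passed 0.5 log2 units with 1 sign in both states, 116 of them negative (0.587%) and 69 positive (0.349%), whereas 36 genes passed it with opposite signs. This balance too rests on the scaling, with 76 negative and 109 positive genes after median centring and 100 negative and 85 positive after quantile normalization. The scatter of the 2 departures shows this excess along the diagonal.

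**Figure D1:**
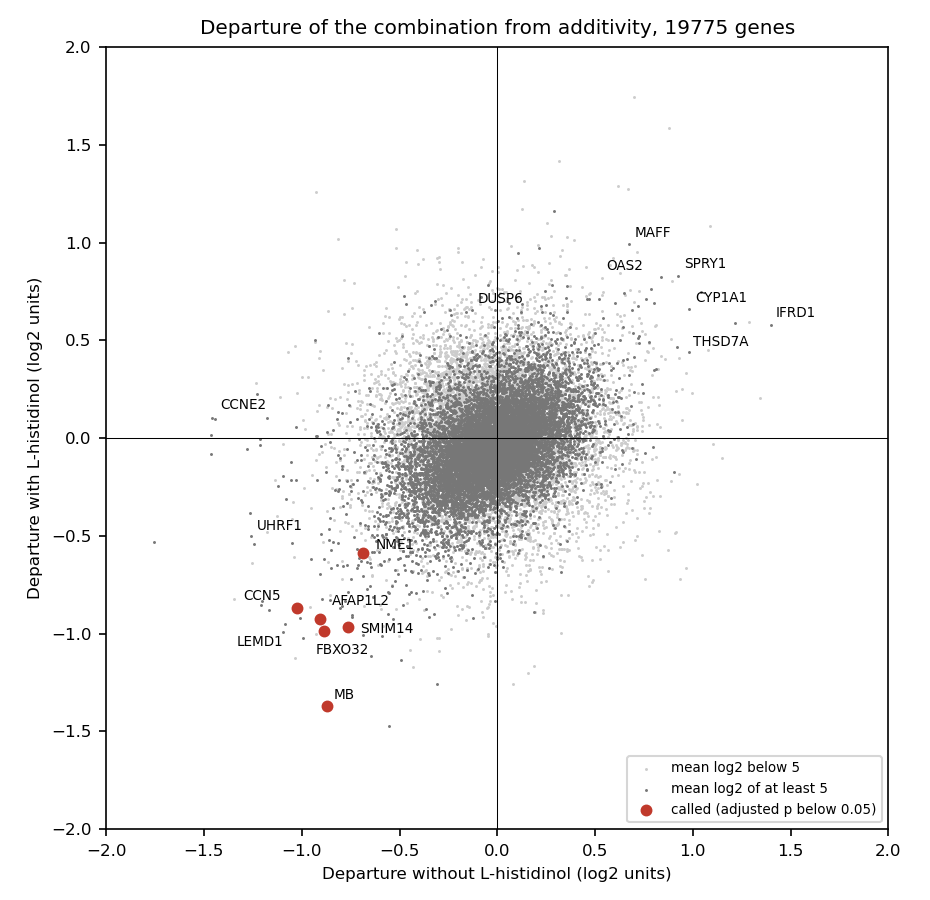
Departure of each of 19775 genes without L-histidinol (horizontal axis, log2 units) against that with it (vertical axis, log2 units), with genes of mean log2 intensity of at least 5 in dark grey and dimmer genes in light grey. The 6 called genes (red) all lie in the lower left quadrant, between -0.59 and -1.37 with L-histidinol and between -0.69 and -1.02 without.

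Limma's additive fit called 6 genes for the departure at an adjusted p below 0.05 (0.0303% of those tested), all with a negative value. At an unadjusted p below 0.05 it had 1201 negative genes (6.07%) and 547 positive ones (2.77%). Of the 6, CCN5, FBXO32, SMIM14, MB and AFAP1L2 were raised by each drug alone and came out below the sum of both effects. NME1 was lowered by each drug alone and fell further than the sum. The plot of the called genes gives their level on every array beside the level that additivity would give.

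CCN5, a secreted matrix-associated protein of the CCN family, was the most strongly induced of the 6. With L-histidinol CCN5 read 12.21 with both drugs, 11.70 with osimertinib, 10.45 with alpelisib and 9.07 with vehicle (log2 intensity, 1 array each). Without L-histidinol it read 12.42 with both drugs, 11.81 with osimertinib, 10.73 with alpelisib and 9.10 with vehicle. The treatments kept the same order in both states and did not overlap, yet the combination lay well short of the sum. Its departure was -0.87 with and -1.02 without L-histidinol, and the fitted value was -0.95 ± 0.09 (SE; limma's adjusted p = 0.00503), where the combination raised CCN5 by 3.23 and the single effects added up to 4.18. CCN5 is the called gene whose verdict depends on the scale: in linear intensity units the combination exceeded the sum by 555 with L-histidinol and by 741 without.

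FBXO32, the substrate-binding subunit of a ubiquitin ligase best known from muscle wasting and a classical FOXO target, behaved similarly on the log2 scale. With L-histidinol FBXO32 read 11.73 with both drugs, 11.43 with osimertinib, 10.80 with alpelisib and 9.50 with vehicle. Without it FBXO32 read 11.67 with both drugs, 11.27 with osimertinib, 10.51 with alpelisib and 9.22 with vehicle. Again the 4 treatments did not overlap. The departure was -0.99 with and -0.89 without L-histidinol (-0.94 ± 0.09; limma's adjusted p = 0.00503), and all 6 of its probe sets with a mean log2 of at least 5 gave a negative departure in both states, between -1.04 and -0.52.

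For SMIM14, a small integral membrane protein, alpelisib added almost nothing to osimertinib. With L-histidinol SMIM14 read 10.57 with both drugs, 10.56 with osimertinib, 10.04 with alpelisib and 9.06 with vehicle. Without it SMIM14 read 10.59 with both drugs, 10.49 with osimertinib, 9.99 with alpelisib and 9.14 with vehicle. The combination and osimertinib arrays nearly coincided in each state although alpelisib alone raised the gene by 0.92. The departure was -0.97 with and -0.76 without L-histidinol (limma's adjusted p = 0.00503), and 4 of 4 probe sets shared its direction.

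MB, myoglobin, and AFAP1L2, an adaptor protein that binds PI3K and SRC, were the other 2 attenuated rises. With L-histidinol MB read 9.18 with both drugs, 9.69 with osimertinib, 8.82 with alpelisib and 7.96 with vehicle. Without it MB read 9.31 with both drugs, 9.64 with osimertinib, 8.71 with alpelisib and 8.18 with vehicle. Both combination arrays thus lay below both osimertinib arrays, and the departure was -1.37 with and -0.87 without L-histidinol (limma's adjusted p = 0.00704). AFAP1L2 read 8.64 with both drugs, 8.63 with osimertinib, 8.22 with alpelisib and 7.28 with vehicle when L-histidinol was present. In its absence AFAP1L2 read 8.85 with both drugs, 8.98 with osimertinib, 8.26 with alpelisib and 7.49 with vehicle. Its combination and osimertinib arrays overlapped, and the departure was -0.93 with and -0.91 without L-histidinol (limma's adjusted p = 0.028).

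NME1, a nucleoside diphosphate kinase, was the only called gene that fell more than additively. With L-histidinol NME1 read 10.63 with both drugs, 11.64 with osimertinib, 11.79 with alpelisib and 12.21 with vehicle. Without it NME1 read 10.42 with both drugs, 11.45 with osimertinib, 11.77 with alpelisib and 12.11 with vehicle. The 4 treatments did not overlap and each drug lowered the gene, with a log2 effect of -0.61 for osimertinib and -0.38 for alpelisib, against -1.63 for the combination. The departure was -0.59 with and -0.69 without L-histidinol (limma's adjusted p = 0.028), and NME1 stayed below the sum on the linear scale too. Just outside the threshold stood LEMD1 (-1.02 with L-histidinol, -0.99 without) and NFE2 (-0.99 with L-histidinol, -1.10 without), both attenuated rises with an adjusted p of 0.05 after rounding, next to AFAP1L2 and NME1 just inside it.

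These calls are fragile. No gene was called when all probe sets of a gene were averaged, when the variance did not follow intensity or when the L-histidinol term was dropped, and leaving out any of the 4 single-drug arrays also gave 0 calls. The departures themselves moved less, and the 6 genes stayed between -1.23 and -0.57 over the 17 alternatives of the fit.

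**Figure D2:**
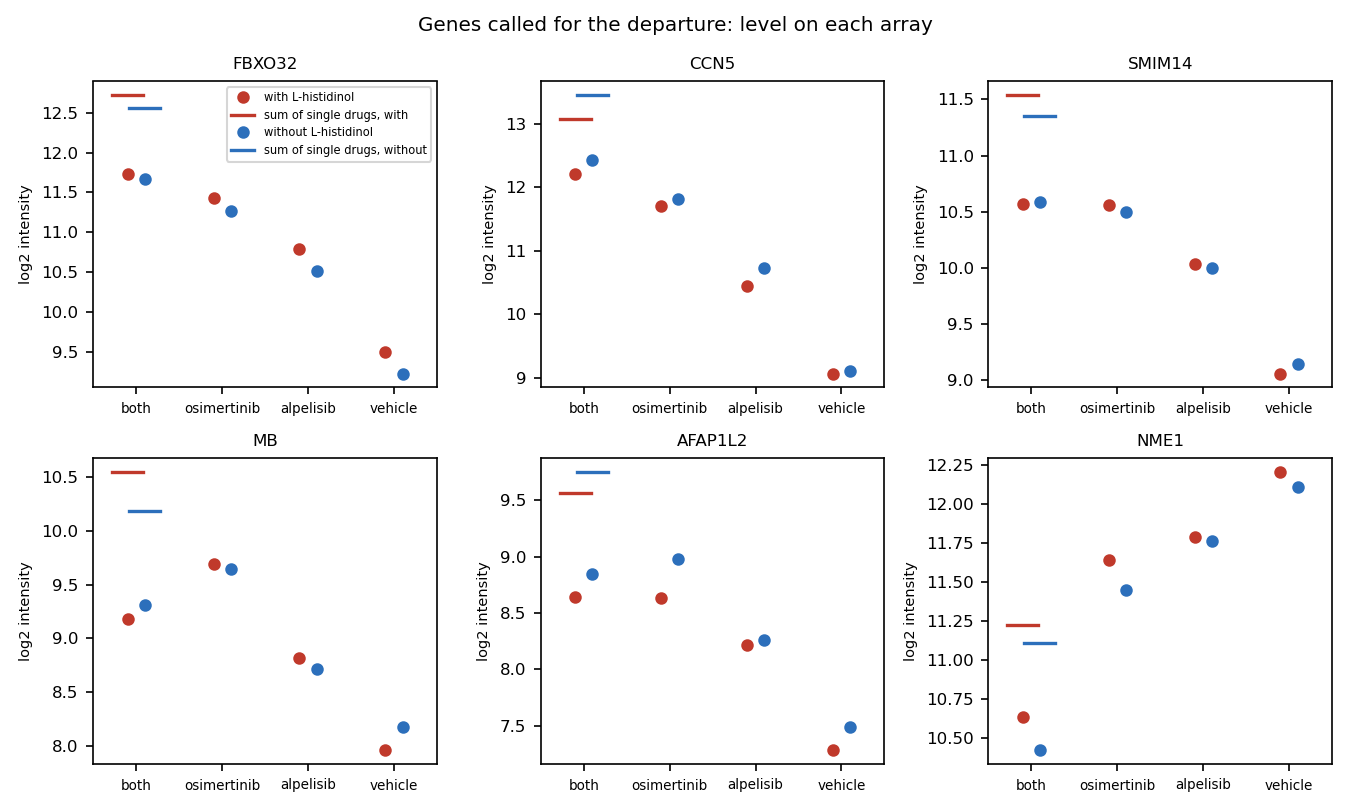
Log2 intensity of the 6 called genes on each array, with L-histidinol in red and without it in blue, and a bar at the level that additivity would give for the combination. Points for both drugs lie below their bars in both states for every gene shown, with departures from -1.37 (MB with L-histidinol) to -0.59 (NME1 with L-histidinol).

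Sorted by the directions of the single drugs, attenuated rises were the most frequent class with a direction for both drugs as deposited, but not with median centring, which gave 662 sub-additive rises and 1438 sub-additive falls. Quantile normalization gave 956 sub-additive rises and 681 sub-additive falls. Among the 11715 genes with 1 sign of departure, 1143 were sub-additive rises, 568 sub-additive falls, 402 supra-additive falls and 170 supra-additive rises. A further 33 genes were pushed in opposite directions by the drugs, 774 were moved by 1 drug and enhanced by the other, 2092 were moved by 1 drug and attenuated, and 6533 had no direction for either drug. Sub-additive did not usually mean that the second drug added nothing. In 932 of the 1143 sub-additive rises (81.5%) the combination went beyond the stronger drug, and it reached a median of 0.771 of the sum. In the sub-additive falls this held for 436 of 568 (76.8%), with a median of 0.760. The medians were 1.16 of the sum in supra-additive rises and 1.19 in supra-additive falls. Among the 185 genes past 0.5 in both states, 79 were sub-additive rises (42.7%), 14 sub-additive falls, 8 supra-additive rises and 8 supra-additive falls. With median centring the sub-additive rises past 0.5 numbered 49 and the sub-additive falls 42, beside 9 supra-additive rises and 1 supra-additive fall. With quantile normalization there were 60 sub-additive rises and 23 sub-additive falls.

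Part of this excess comes with the arithmetic, since a high reading on a single-drug array raises that drug's effect and lowers the departure at once. Directions were therefore taken from the 4 arrays of one L-histidinol state and departures from the 4 arrays of the other. Of 570 genes raised by at least 0.5 by each drug without L-histidinol, 424 (74.4%) had a negative departure with it, against 54.4% of all genes, with a median of -0.19. Of 553 genes so raised with L-histidinol, 413 (74.7%) had a negative departure without it, against 54.0% of all genes, with a median of -0.18. Where each drug alone raised a gene by at least 1 log2 unit, the shares were 78.3% of 60 genes and 88.4% of 69, with medians of -0.37 and -0.35. When directions and departures came from the same arrays the corresponding shares at 0.5 were larger, 85.8% and 91.1%.

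Genes lowered by both drugs showed no such common rule. Of 230 genes lowered by at least 0.5 by each drug without L-histidinol, 121 (52.6%) had a positive, attenuated departure with it, against 45.6% of all genes. Of 159 genes lowered with L-histidinol, 49 (30.8%) had a positive departure without it, against 46.0% of all genes. The plot of these shares under 3 scalings shows the rises above the background each time. The attenuated share of rises was also larger in bright genes, more clearly so in 1 of the 2 choices of arrays. With directions taken without L-histidinol it was 60.1% of 198 genes below a mean log2 of 6 and 84.4% of 109 genes between 8 and 10. Of all genes at those levels, 48.3% and 62.6% were negative. With directions taken with L-histidinol it was 71.9% of 153 genes and 79.1% of 129 at the same levels. There 53.5% and 55.3% of all genes were negative. The part that array intensity plays in the result was not tested.

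**Figure D3:**
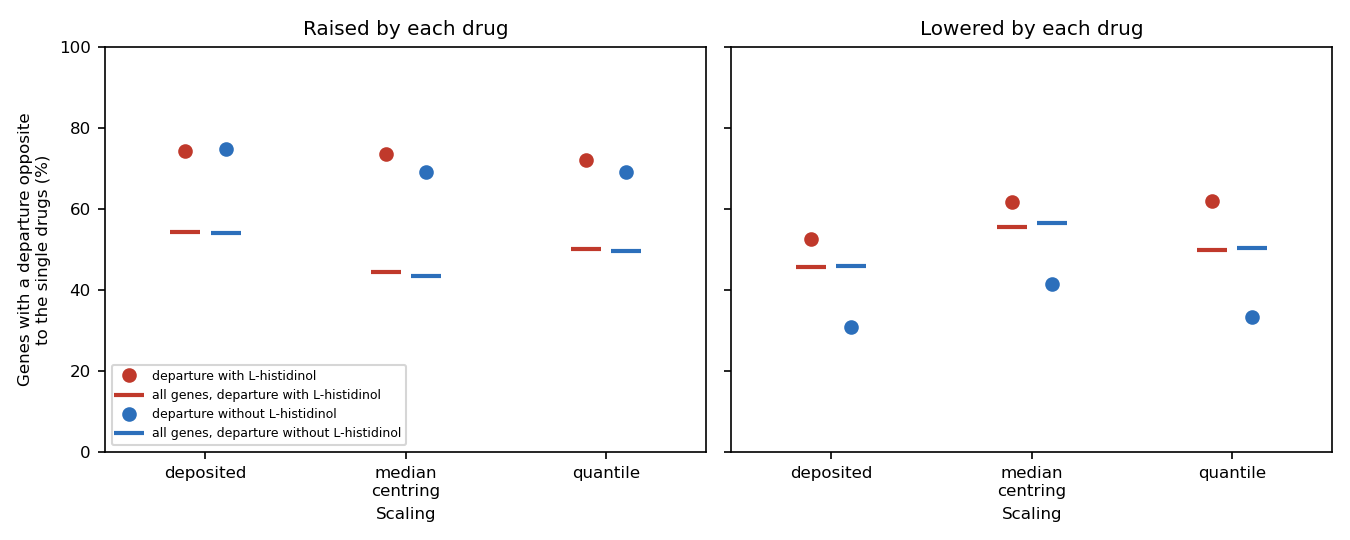
Share of genes (%) whose departure opposes the direction of both single drugs, for genes raised (left) or lowered (right) by at least 0.5 log2 units by each drug, with directions read from the arrays of the other L-histidinol state. Points are these genes and bars all genes, for departures with (red) and without (blue) L-histidinol and for 3 scalings. Raised genes lie between 69.0% and 74.7%, above every bar, whereas lowered genes lie above the bar with L-histidinol and below it without.

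The gene lists that follow hold 384 measured members, and 0 of them were called for the departure by limma, with 57 lower and 32 higher at an unadjusted p below 0.05. Each list is therefore described by its counts and its median beside those of all genes, whose median departure was -0.02. The plot of list members gives every value.

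**Figure D4:**
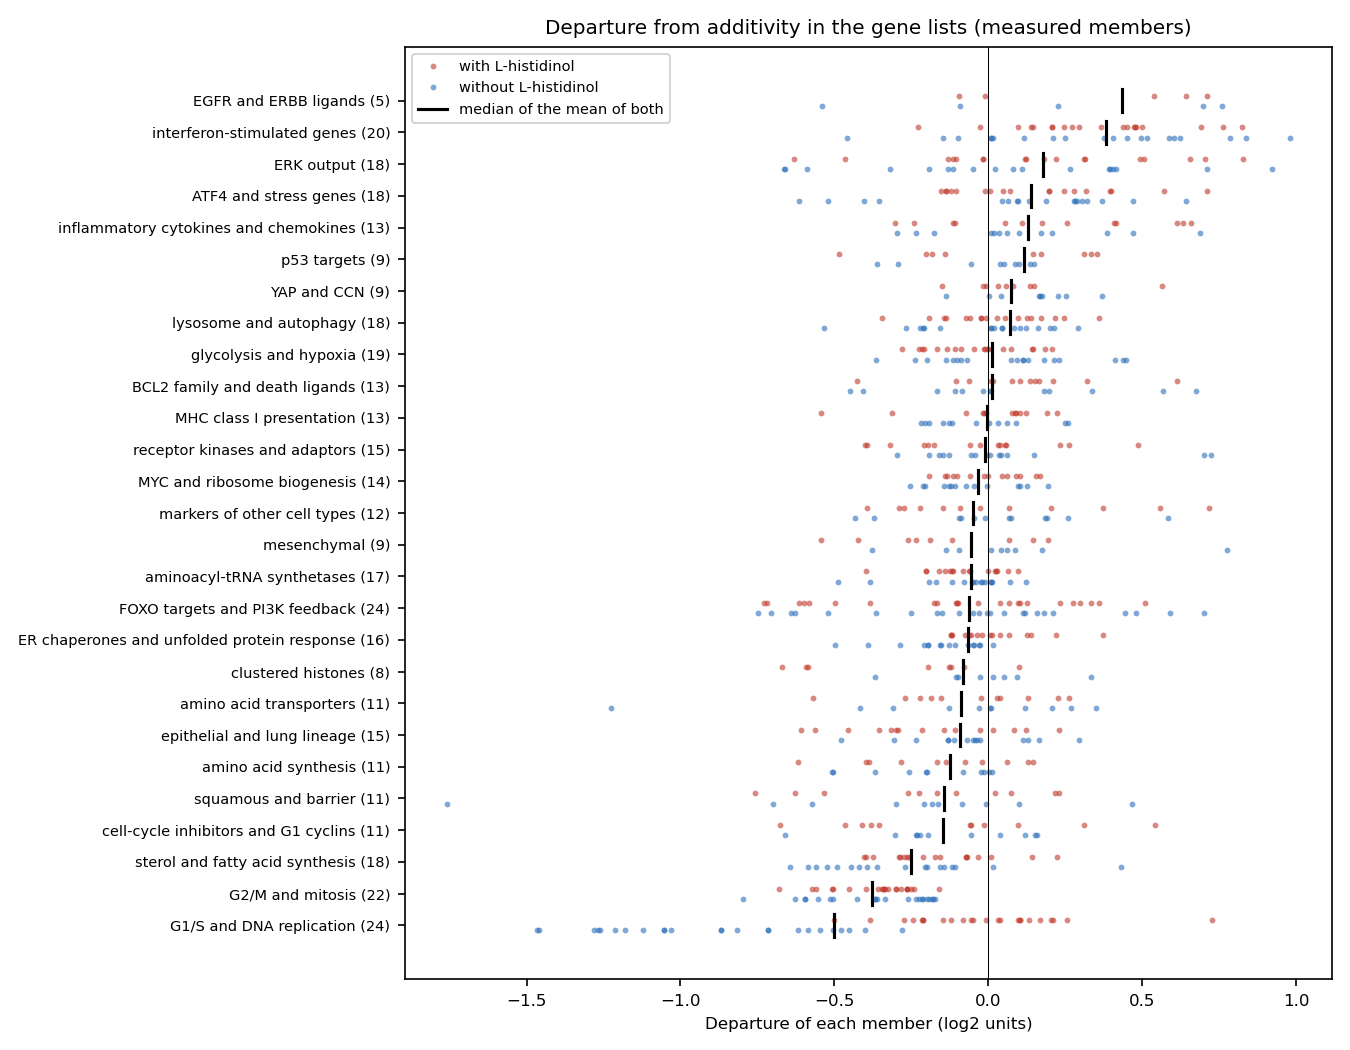
Departure of each measured member of 27 gene lists (log2 units), with L-histidinol in red and without it in blue, and the list's median of the mean of both as a black bar. Number of measured members in parentheses. Members of the G2/M and mitosis list lie left of 0 in both states, and most interferon-stimulated genes lie right of it.

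Mitotic genes departed in a single direction. All 22 measured G2/M and mitosis genes had a negative departure in both states, where 33.8% of all genes did, and their medians were -0.34 with and -0.35 without L-histidinol. At an unadjusted p below 0.05, limma had 5 of the 22 (background 6.07%). By class 18 of the 22 were supra-additive falls. At limma's adjusted p below 0.05 the combination lowered 22 of 22, where it called 40.6% of all genes and 19.2% lower. Osimertinib alone lowered 19 (30.4% of all genes called, 14% lower) and alpelisib alone 3 (11.5% called, 4.38% lower). Added to osimertinib, alpelisib changed the median member by -0.76, against -0.38 when given alone. All 22 stayed negative in both states with median centring and with quantile normalization.

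CDK1, the kinase that starts mitosis, had the largest fitted departure of the list. With L-histidinol CDK1 read 8.62 with both drugs, 9.44 with osimertinib, 9.73 with alpelisib and 10.04 with vehicle. Without it CDK1 read 8.25 with both drugs, 9.28 with osimertinib, 10.04 with alpelisib and 10.44 with vehicle. Both combination arrays were the lowest of the 8, and the departure was -0.51 with and -0.63 without L-histidinol (-0.57 ± 0.21; limma's adjusted p = 0.448), with the same direction in 3 of 3 probe sets. PLK1, a kinase of mitotic entry and spindle formation, departed by -0.50 with and -0.37 without L-histidinol. The spindle protein NUSAP1 departed by -0.36 with and -0.51 without L-histidinol. Outside the list, the kinetochore subunits SPC25 (-0.54 with L-histidinol, -1.05 without) and NDC80 (-0.54 with L-histidinol, -0.81 without) were among the largest supra-additive falls. The adjusted p of limma was 0.595 for PLK1, 0.578 for NUSAP1, 0.347 for SPC25 and 0.433 for NDC80. On the linear intensity scale only 3 of the 22 stayed below the sum in both states, 1 was above it in both and 18 were mixed, so "supra-additive" describes fold changes for this list and not the intensity lost.

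Promoters of these genes are shown because all measured members departed in 1 direction and mitotic promoters are known for 2 short elements, the CHR (TTTGAA), bound by the DREAM and MuvB complexes, and the CCAAT box, bound by NF-Y. The letters of each element are in capitals, on either strand, in the 150 bases before the start of the gene, 5′ to 3′ along the gene's strand, from RefSeq's GRCh38.p14.
PLK1, chr16:23678739-23678888, plus strand: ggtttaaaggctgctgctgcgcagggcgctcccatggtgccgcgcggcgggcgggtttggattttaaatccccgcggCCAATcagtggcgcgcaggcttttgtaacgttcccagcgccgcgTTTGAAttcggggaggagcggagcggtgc
CDK1, chr10:60778181-60778330, plus strand: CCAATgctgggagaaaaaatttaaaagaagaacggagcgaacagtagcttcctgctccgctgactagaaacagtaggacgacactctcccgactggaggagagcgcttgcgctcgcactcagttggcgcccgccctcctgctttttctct
NUSAP1, chr15:41332731-41332880, plus strand: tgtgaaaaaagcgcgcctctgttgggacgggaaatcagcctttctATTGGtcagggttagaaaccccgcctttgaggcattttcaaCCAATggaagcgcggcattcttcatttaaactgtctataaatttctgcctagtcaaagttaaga
PLK1 held 1 match to each element, CDK1 1 CCAAT box and NUSAP1 2, 1 of them on the other strand. In the 250 bases before the start, 10 of the 18 mitotic genes with a promoter in the table (55.6%) held TTTGAA, against 13.6% of all 27305 promoters, and 16 (88.9%) held CCAAT, against 33.0%. These motifs were chosen after the values were seen, and the shares describe the list and not the departure. A match is a description and not a bound site, and 18 of the 22 genes had an entry.

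Genes of G1/S and DNA replication had larger departures without L-histidinol than with it, a difference that was not tested. All 24 measured members had a negative departure without it (median -0.87), but with it the median was -0.03 and 13 of the 24 had a negative departure in both states. The mean level of the list with L-histidinol was 7.23 with both drugs, 7.66 with osimertinib, 8.59 with alpelisib and 9.01 with vehicle. Without L-histidinol it was 7.21 with both drugs, 8.35 with osimertinib, 9.21 with alpelisib and 9.45 with vehicle. The combination arrays thus ended at nearly the same level, whereas the single-drug and vehicle arrays lay lower when L-histidinol was present. At an unadjusted p below 0.05, limma had 12 of the 24 (background 6.07%). On the linear intensity scale 3 of the 24 were below the sum in both states, 7 above it in both and 14 mixed.

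Within the list, UHRF1, which recruits the maintenance DNA methyltransferase, and PCNA, the sliding clamp of DNA polymerase, kept a negative log2 departure in both states. In linear intensity units their departures were 207 and 120 with L-histidinol, and -317 and -577 without it. With L-histidinol UHRF1 read 8.08 with both drugs, 9.09 with osimertinib, 10.16 with alpelisib and 10.67 with vehicle. Without it UHRF1 read 8.24 with both drugs, 9.67 with osimertinib, 10.62 with alpelisib and 10.79 with vehicle. Both combination arrays were the lowest of the 8, and the departure was -0.50 with and -1.26 without L-histidinol (-0.88 ± 0.14; limma's adjusted p = 0.0835). PCNA departed by -0.38 with and -1.27 without L-histidinol, and the replicative helicase subunit MCM6 by -0.27 with and -0.81 without L-histidinol. CDCA7, an E2F-regulated chromatin factor outside the list and among the largest supra-additive falls, departed by -0.54 with and -1.25 without L-histidinol (limma's adjusted p = 0.112), but a second, dim probe set gave 0.46. CCNE2, cyclin E2, departed by 0.10 with and -1.46 without L-histidinol. The search for the E2F letters TTTCGCGC on both strands found 2 of 21 list promoters with a match (9.52%), against 0.469% of all promoters. This share too describes the list and not the departure.

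**Figure D5:**
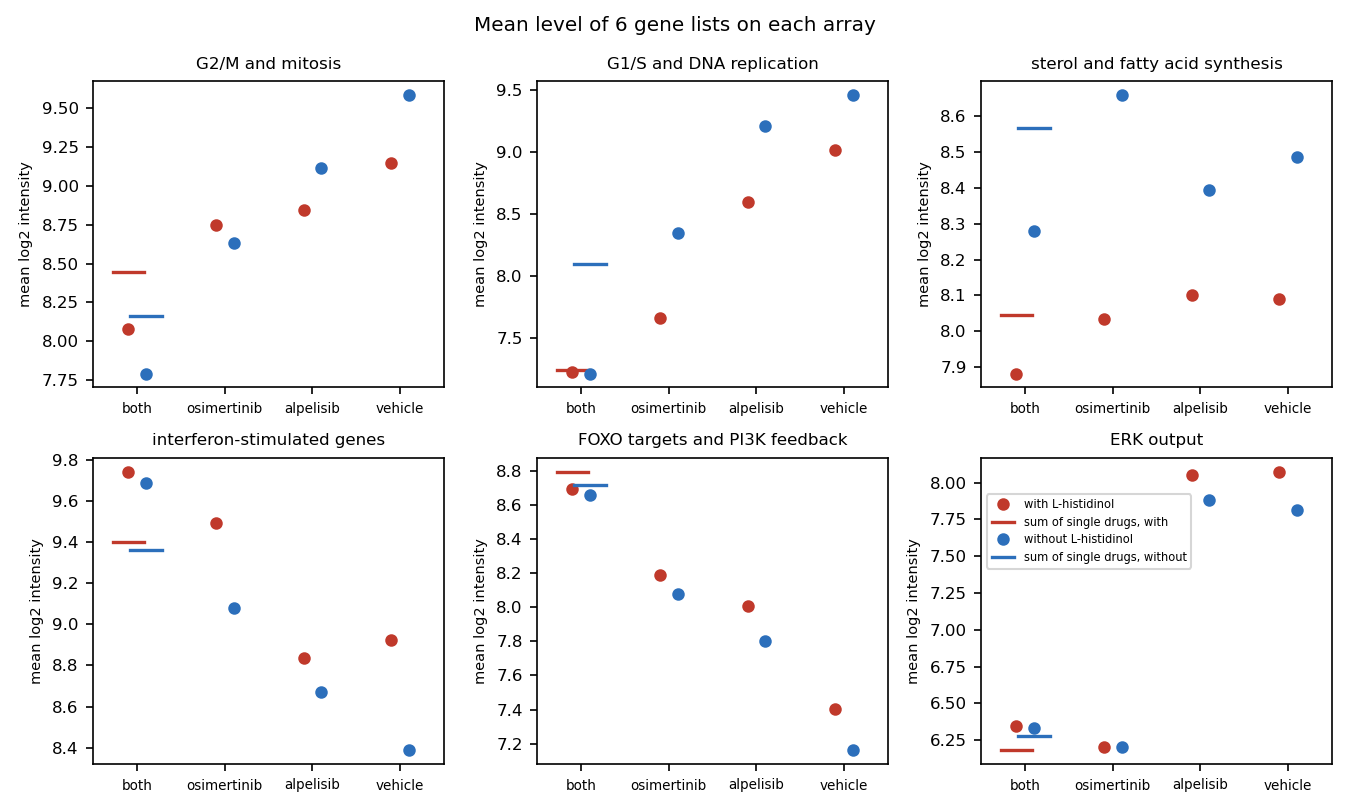
Mean log2 intensity of 6 gene lists on each array, with L-histidinol in red and without it in blue, and a bar at the level that additivity would give for the combination. The combination lies below the bar in both states for mitotic and sterol genes, and above it for interferon-stimulated genes. For G1/S genes it lies far below the bar without L-histidinol and almost on it with L-histidinol.

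Interferon-stimulated genes formed the opposite group. Of 20 measured members 17 had a positive departure in both states, where 25.4% of all genes did, 2 a negative one, and the medians were 0.33 with and 0.39 without L-histidinol. At an unadjusted p below 0.05, limma had 10 of the 20 (background 2.77%). Averaged over both states, alpelisib alone changed the median member by 0.07 and raised 3 of the 20 (background 7.08%). On top of osimertinib its median effect was 0.35. The direction of alpelisib alone differed between the states, which was not tested. The list mean was 8.83 with alpelisib and 8.92 with vehicle in the presence of L-histidinol, and 8.67 against 8.39 without it. The most frequent class was enhancement of 1 drug, with 10 members. A drug whose effect changes sign between the states counts as having no direction, as alpelisib did for OAS2, IFI44L and IFI6. The 17 stayed positive under both other scalings, and on the linear scale 19 of 20 were above the sum in both states.

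OAS2, an enzyme that activates RNase L on double-stranded RNA, had the largest departure of the list. With L-histidinol OAS2 read 7.75 with both drugs, 7.32 with osimertinib, 5.76 with alpelisib and 6.16 with vehicle. Without it OAS2 read 7.75 with both drugs, 6.56 with osimertinib, 5.54 with alpelisib and 5.19 with vehicle. Both combination arrays were the highest of the 8, and the departure was 0.82 with and 0.84 without L-histidinol (0.83 ± 0.27; limma's adjusted p = 0.391), although a second probe set gave only 0.17. IFI44L, a feedback regulator of interferon signalling, read 9.11 with both drugs, 8.76 with osimertinib, 7.77 with alpelisib and 8.18 with vehicle when L-histidinol was present. In its absence IFI44L read 8.87 with both drugs, 7.59 with osimertinib, 7.14 with alpelisib and 6.63 with vehicle. Its departure was 0.76 with and 0.78 without L-histidinol, and that of IFI6, an interferon-induced survival protein, was 0.69 with and 0.60 without L-histidinol. IRF7, a transcription factor that amplifies the interferon response, departed by 0.45 with and 0.45 without L-histidinol, on top of effects of 1.21 for osimertinib and 0.41 for alpelisib (not called). IFIT1, which binds viral RNA, was raised by osimertinib (0.44), read -0.36 against vehicle with alpelisib (not called), and departed by 0.44 with and 0.98 without L-histidinol. IFI44 (0.48 with L-histidinol, 0.52 without) was lowered by osimertinib (-0.27), while alpelisib (-0.26) and the combination (-0.03) were not called.

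The promoters of IFI44L and IFI6 are shown with the core of the interferon-stimulated response element (TTTC, any 2 bases and TTTC, on either strand) in capitals. Windows, strand and source are as above.
IFI44L, chr1:78620298-78620447, plus strand: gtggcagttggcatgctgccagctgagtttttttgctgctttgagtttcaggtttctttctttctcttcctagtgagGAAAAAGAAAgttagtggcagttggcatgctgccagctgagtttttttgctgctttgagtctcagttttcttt
IFI6, chr1:27672193-27672342, minus strand: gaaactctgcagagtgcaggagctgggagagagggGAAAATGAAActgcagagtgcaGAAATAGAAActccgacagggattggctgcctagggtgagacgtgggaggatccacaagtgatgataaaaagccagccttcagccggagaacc
IFI44L held 1 match and IFI6 held 2. In the 250 bases before the start 12 of 16 list promoters in the table (75%) held the element, against 3.07% of all promoters. This motif too was chosen after the values were seen, and the share describes a list of known interferon-stimulated genes and not the departure.

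FOXO targets and PI3K feedback genes, many of which each drug raised, split into both directions. The combination raised 22 of 24 members (21.4% of all genes), osimertinib 21 (16.4%) and alpelisib 14 (7.08%). Of the 24, 12 had a negative and 10 a positive departure in both states, 10 were sub-additive and 6 supra-additive rises, and the median was -0.06. With median centring 9 were negative and 11 positive. On the linear intensity scale 17 of the 24 were above the sum in both states, 4 below it in both and 3 mixed, so the split describes fold changes. At an unadjusted p below 0.05, limma had 7 negative (background 6.07%) and 3 positive members (background 2.77%). The attenuated side was led by YPEL5, a subunit of the CTLH ubiquitin ligase. With L-histidinol YPEL5 read 10.28 with both drugs, 9.86 with osimertinib, 9.33 with alpelisib and 8.20 with vehicle. Without it YPEL5 read 10.36 with both drugs, 10.06 with osimertinib, 9.14 with alpelisib and 8.10 with vehicle. The 4 treatments did not overlap, and the departure was -0.72 with and -0.75 without L-histidinol (limma's adjusted p = 0.0835). CCNG2, an unconventional cyclin that restrains proliferation and is a known FOXO target, departed by -0.50 with and -0.64 without L-histidinol, the nuclear receptor coactivator PNRC1 by -0.58 with and -0.63 without L-histidinol and the ubiquitin ligase adaptor KLHL24 by -0.62 with and -0.71 without L-histidinol. In linear intensity units CCNG2 exceeded the sum by 40.3 with and 49.5 without L-histidinol. KLHL24 exceeded it by 34.3 with and 119 without L-histidinol. Of the 4 brighter KLHL24 probe sets 3 were negative in both states, and another gave 0.26.

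On the other side stood IRS2, the adaptor through which insulin and IGF1 receptors reach PI3K. With L-histidinol IRS2 read 9.90 with both drugs, 8.84 with osimertinib, 9.22 with alpelisib and 8.39 with vehicle. Without it IRS2 read 9.38 with both drugs, 7.69 with osimertinib, 8.39 with alpelisib and 7.41 with vehicle. Both combination arrays were above every array of the same L-histidinol state, and the departure was 0.23 with and 0.70 without L-histidinol (limma's adjusted p = 0.438), with the same direction in 2 of 2 probe sets. GAB2, a docking protein that also recruits PI3K, departed by 0.49 with and 0.72 without L-histidinol. ERBB2, the EGFR family member without a known ligand, was a sub-additive rise (-0.39 with L-histidinol, -0.30 without), whereas ERBB3, which carries the PI3K binding sites of the family, stayed close to the sum (-0.18 with L-histidinol, 0.01 without). EGFR itself was lowered by osimertinib (-0.54) and added up closely (-0.03 with L-histidinol, -0.04 without). The FOXO letters GTAAACA, searched on both strands, were in 4 of 21 list promoters (19.0%), against 2.98% of all promoters. This share describes the list and not the departure. Among sub-additive rises past 0.5 in both states, 2 of 61 promoters (3.28%) held these letters.

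ERK output genes were lowered by osimertinib throughout, 18 of 18 (14% of all genes were lower), and departures were small beside that. The median osimertinib effect was -1.57 and the median departure 0.18, with 8 members positive and 5 negative in both states. SPRY1, a feedback inhibitor of receptor signalling, had the largest positive departure of the list. With L-histidinol SPRY1 read 5.39 with both drugs, 4.76 with osimertinib, 5.43 with alpelisib and 5.63 with vehicle. Without it SPRY1 read 5.16 with both drugs, 4.35 with osimertinib, 5.37 with alpelisib and 5.48 with vehicle. Each osimertinib array was the lowest of its state and the combination lay between it and alpelisib, all at dim levels, and the departure was 0.83 with and 0.92 without L-histidinol (limma's adjusted p = 0.137). A second SPRY1 probe set of similar level gave only 0.25. CCND1, cyclin D1, went the other way: alpelisib alone was not called (limma's adjusted p = 0.993), yet the combination lay below osimertinib in both states, with a departure of -0.47 with and -0.66 without L-histidinol. EGR1, an immediate early transcription factor, was raised by alpelisib (0.93) and lowered by osimertinib (-1.83). Its combination arrays read 5.51 with and 5.46 without L-histidinol, close to osimertinib alone (5.31 with, 5.10 without), which left a departure of -0.63 with and -0.66 without L-histidinol.

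Among EGFR ligands, EREG (epiregulin) and TGFA were less suppressed by the combination than by the sum. EREG read 7.74 with both drugs, 7.07 with osimertinib, 8.13 with alpelisib and 8.17 with vehicle when L-histidinol was present. In its absence EREG read 7.16 with both drugs, 6.82 with osimertinib, 7.88 with alpelisib and 8.31 with vehicle. The combination lay above osimertinib alone in both states, with a departure of 0.71 with and 0.76 without L-histidinol (limma's adjusted p = 0.279). TGFA departed by 0.54 with and 0.70 without L-histidinol, although a second, dimmer probe set gave only 0.14. HBEGF departed by 0.64 with and 0.23 without L-histidinol, and a second, dimmer probe set gave only 0.16. The fitted departure of HBEGF ranged from 0.051 to 0.82 when single arrays were left out, with the lowest value without the osimertinib array with L-histidinol. All 5 measured ligands had 1 sign in both states, 3 positive and 2 negative.

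Sterol and fatty acid synthesis genes had a negative departure although the list's median effect of either drug alone was near 0. The median effects were 0.02 for osimertinib and -0.08 for alpelisib, and the median with both drugs was -0.31. The medians hide a split between members. At limma's adjusted p below 0.05, osimertinib raised 6 of the 18 (16.4% of all genes) and lowered 4 (14%). Alpelisib raised 0 (7.08%) and lowered 3 (4.38%). The list mean was 8.03 with osimertinib and 8.09 with vehicle in the presence of L-histidinol, and 8.66 against 8.49 without it. Of 18 measured members 13 had a negative departure in both states (33.8% of all genes) and 0 a positive one, with medians of -0.19 with and -0.32 without L-histidinol. At an unadjusted p below 0.05, limma had 7 of the 18 (background 6.07%). SCD, the desaturase that makes oleate, read 9.07 with both drugs, 9.73 with osimertinib, 9.74 with alpelisib and 10.01 with vehicle when L-histidinol was present. In its absence SCD read 9.60 with both drugs, 10.31 with osimertinib, 9.98 with alpelisib and 10.10 with vehicle. The combination gave the lowest level in each state, and the departure was -0.40 with and -0.58 without L-histidinol (-0.49 ± 0.15; limma's adjusted p = 0.347), with 2 of 4 probe sets in the same direction in both states. HMGCS1, an early enzyme of cholesterol synthesis, departed by -0.37 with and -0.49 without L-histidinol, and STARD4, which carries cholesterol between membranes, by -0.40 with and -0.52 without L-histidinol.

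Outside the lists, the largest supra-additive rises included CYP1A1, a monooxygenase induced through the aryl hydrocarbon receptor. With L-histidinol CYP1A1 read 8.11 with both drugs, 7.01 with osimertinib, 6.08 with alpelisib and 5.64 with vehicle. Without it CYP1A1 read 8.03 with both drugs, 6.48 with osimertinib, 5.94 with alpelisib and 5.36 with vehicle. Both combination arrays stood more than 1 log2 unit above every other array, and the departure was 0.66 with and 0.98 without L-histidinol (limma's adjusted p = 0.138). THSD7A, a membrane protein with thrombospondin repeats, departed by 0.59 with and 1.21 without L-histidinol (limma's adjusted p = 0.234), with the same direction in 3 of 3 probe sets. Without L-histidinol it read 6.68 with both drugs, but only 4.50 with osimertinib, 4.87 with alpelisib and 3.91 with vehicle, which are dim levels. The tight junction protein CLDN1 departed by 0.71 with and 0.52 without L-histidinol and the peptidase DPP4 by 0.42 with and 0.41 without L-histidinol.

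Among the largest sub-additive falls was that of IFRD1, a transcriptional coregulator. IFRD1 read 9.74 with both drugs, 9.52 with osimertinib, 9.25 with alpelisib and 9.60 with vehicle when L-histidinol was present. In its absence IFRD1 read 9.48 with both drugs, 9.01 with osimertinib, 8.69 with alpelisib and 9.62 with vehicle. Each drug lowered it, while the combination was not called against vehicle (limma's adjusted p = 0.991), and the departure was 0.58 with and 1.40 without L-histidinol (limma's adjusted p = 0.0835). NCR3LG1, a ligand of the natural killer cell receptor NKp30, departed by 0.75 with and 1.04 without L-histidinol.

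Further attenuated rises that missed the threshold were the detoxifying reductase AKR1B10 (-0.95 with L-histidinol, -1.09 without) and NDRG4 (-0.92 with L-histidinol, -1.01 without). In the epithelial list 8 of 15 members had a negative and 1 a positive departure in both states, where 33.8% and 25.4% of all genes did. With median centring 6 members were negative and 4 positive. ELF3, an epithelial transcription factor, departed by -0.61 with and -0.23 without L-histidinol, and the keratin KRT19 by -0.31 with and -0.48 without L-histidinol, although the mean over all KRT19 probe sets gave 0.07. The urea cycle enzyme ASS1 departed by -0.62 with and -0.51 without L-histidinol.

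Genes that the drugs pushed apart were few. MAFF, a small MAF transcription factor, was lowered by osimertinib (-1.42) and raised by alpelisib (0.57). With L-histidinol MAFF read 8.07 with both drugs, 6.56 with osimertinib, 8.74 with alpelisib and 8.23 with vehicle. Without it MAFF read 8.01 with both drugs, 6.70 with osimertinib, 8.51 with alpelisib and 7.87 with vehicle. The combination stayed near vehicle, above the level that the single effects would give, and the departure was 0.99 with and 0.67 without L-histidinol (limma's adjusted p = 0.126). A second, dimmer MAFF probe set gave 0.32. FAM20C, a kinase of secreted proteins, and ANGPTL4, an inhibitor of lipoprotein lipase, went the other way. FAM20C departed by -0.79 with and -0.77 without L-histidinol (limma's adjusted p = 0.0716; a second probe set gave 0.20), and ANGPTL4 by -0.46 with and -0.86 without L-histidinol.

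A related pattern was seen in 3 genes that alpelisib alone raised, by 0.47, 0.53 and 0.67 on the log2 scale, and that lay below vehicle with both drugs in each state. These were RAB7B, a lysosomal trafficking GTPase (-0.83 with L-histidinol, -1.21 without), LOXL1, a collagen cross-linking enzyme (-0.86 with L-histidinol, -0.79 without), and the monoamine oxidase MAOB (-0.83 with L-histidinol, -0.78 without). Against vehicle the combination was called lower for RAB7B (-0.53). It was not called for LOXL1 (-0.19, limma's adjusted p = 0.247) or MAOB (-0.17, limma's adjusted p = 0.3). Without L-histidinol MAOB read 5.18 with both drugs and 5.20 with vehicle. ATF3, a stress-induced transcription factor, was raised by osimertinib (0.73) but not called for alpelisib (0.12), and gained more than that with both drugs. With L-histidinol ATF3 read 8.65 with both drugs, 7.92 with osimertinib, 7.33 with alpelisib and 7.17 with vehicle. Without it ATF3 read 7.83 with both drugs, 7.11 with osimertinib, 6.47 with alpelisib and 6.39 with vehicle. Both combination arrays were the highest of their state, and the departure was 0.57 with and 0.64 without L-histidinol (limma's adjusted p = 0.133) in 3 of 3 probe sets. Its list of ATF4 and stress genes had 11 of 18 members positive and 3 negative in both states, with a median of 0.14 that ranged from -0.011 without the combination array lacking L-histidinol to 0.29 without the vehicle array lacking it. ATF4 itself departed by 0.20 with and 0.31 without L-histidinol.

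Read on the linear intensity scale, the classes do not hold equally. All 170 supra-additive rises and all 568 sub-additive falls kept their sign in both states, as follows from the geometry of the logarithm. Of the 1143 sub-additive rises 700 kept it, 162 had the opposite sign in both states and 281 were mixed. Of the 402 supra-additive falls 47 kept it, 155 had the opposite sign and 200 were mixed. SMIM14, MB, AFAP1L2, FBXO32 and NME1 kept a negative departure on both scales.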

How the data were processed

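The series matrix holds 1 value per probe set and array. The deposited numbers are signal intensity on a linear scale. Per the submitters' processing notes, the authors used RMA and affy, whose versions those sources do not give. The log2 of each intensity was taken and no further scaling applied. Of 54675 probe sets, 62 controls were set aside; 41091 carried 1 gene symbol in the platform annotation, 1801 several and 11721 none, and only the first were named. Entrez identifiers of 41037 matched RefSeq's gene table, and 0 symbols were updated. Each of 19775 genes was represented by its probe set with the highest mean (9252 had a single one).

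The departure was tested with limma 3.58.1 (R 4.3.3) on the sum of L-histidinol and a drug treatment of 4 levels, over all 8 arrays, with moderated variances following intensity (3 residual and 8.08 prior degrees of freedom) and Benjamini-Hochberg adjustment over all genes at 0.05. Its residual holds any interaction of L-histidinol with the drugs as well as noise. On simulated data of 19775 genes the departure test recovered 0%, 79% and 99% of departures of 0.5, 1 and 2 log2 units, with 0, 13 and 7 false calls. Tables used Python 3.11.15, numpy 2.4.6, pandas 2.3.3 and matplotlib 3.10.9.

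Genes were named by rule: all called genes, the 6 with the largest smaller-of-both departure in each class at a mean log2 of at least 5, up to 3 members of each of 27 gene lists (430 entries, 421 distinct genes, 384 measured), and 11 fixed genes; which of these are printed was decided with their values in view. The members and lists were chosen with earlier results of these data known. Alternatives changed the probe set rule, the filter on dim genes, the pseudocount, the scaling, the model terms, the variance trend, the threshold for a direction and the scale of additivity, and left out each array in turn.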

Additional observations from a re-analysis of the deposited data

Results flagged for a closer look

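Some values had opposite signs with and without L-histidinol; each state has 1 array per condition, so none of these differences was tested. The departure of CCNE2, cyclin E2, was larger with L-histidinol by 1.56 (0.10 with and -1.46 without L-histidinol). With L-histidinol CCNE2 read 5.31 with both drugs, 5.54 with osimertinib, 7.38 with alpelisib and 7.71 with vehicle. Without it CCNE2 read 5.57 with both drugs, 6.97 with osimertinib, 8.22 with alpelisib and 8.16 with vehicle. The combination arrays lay close together, whereas the osimertinib array was lower in the presence of L-histidinol.

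The ERK feedback phosphatase DUSP6 differed by 0.79 (0.66 with and -0.13 without L-histidinol), and the ERK-induced transcription factor ETV5 by 1.02 (0.70 with and -0.32 without L-histidinol). The other DUSP6 probe sets lay further apart, at 0.83 and 0.90 with L-histidinol and -0.72 and -0.83 without it. DUSP6 read 4.62 with both drugs and 8.50 with vehicle when L-histidinol was present. In its absence DUSP6 read 4.31 with both drugs and 7.47 with vehicle. Both combination readings were dim, below a log2 intensity of 5. The vehicle arrays of DUSP6 lay further apart than the combination arrays. MYC differed by 0.15 (0.10 with and -0.05 without L-histidinol) and ERBB3 by -0.18 (-0.18 with and 0.01 without L-histidinol), each around a value close to 0.

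Of the list medians, 5 changed sign, all with small values. The difference with minus without L-histidinol was -0.11 for glycolysis and hypoxia (-0.01 with, 0.09 without), -0.0297 for amino acid transporters (-0.02 with, 0.01 without), 0.12 for MHC class I presentation (0.08 with, -0.04 without), -0.23 for mesenchymal genes (-0.19 with, 0.04 without) and -0.0862 for markers of other cell types (-0.06 with, 0.03 without).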

How the results depend on the processing

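The count of genes called for the departure depended most on the fit. Against 6 lower and 0 higher genes, there were 0 with the mean of all probe sets, 0 without the L-histidinol term and 0 without the variance trend. There were 13 (12 lower, 1 higher) without marked probe sets, meaning those with names ending in _x_at, _s_at or _a_at. With all 2-way terms there were 1215 (934 lower, 281 higher), in a fit with 1 residual degree of freedom. Leaving out 1 array gave 0 to 68 calls (0 to 63 lower, 0 to 5 higher): 0 without any of the 4 single-drug arrays, 68 and 11 without the combination array with and without L-histidinol, and 15 and 9 without the vehicle array with and without it. No paired analysis was possible because there is 1 array per condition and the titles carry no replicate numbers; L-histidinol is already a term of the model.

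Among class counts, attenuation of 1 drug moved to 1307 and no direction to 3522 when only brighter genes were kept (7522 genes of 1 sign), attenuation to 1384 with a pseudocount of 16, opposed drugs to 20 with the mean of probe sets, supra-additive falls to 266 without marked probe sets, and with median centring sub-additive rises to 662 and sub-additive falls to 1438, which turns the order of these classes round. With a direction from 0 log2 units on there were 625 supra-additive rises, 1097 supra-additive falls, 2740 sub-additive rises, 1932 sub-additive falls, 615 opposed and 1156 with no direction; from 0.5 on there were 32, 30, 374, 50 and 10 of the first 5, with 510 enhanced and 999 attenuated. With directions from the other state's arrays at 0.25, supra-additive rises numbered 748 with and 759 without L-histidinol, supra-additive falls 911 and 918, and sub-additive falls 1004 with it.

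The median of the mitosis list was -0.33 (mean of probe sets), -0.41 (marked ones left out), -0.34 (pseudocount), -0.32 (median centring), -0.39 (quantile) and -0.61 to -0.11 without single arrays. Interferon-stimulated genes gave 0.28 (mean of probe sets), 0.44 (median centring) and 0.14 to 0.46 without single arrays; FOXO targets 0.048 (mean of probe sets), -0.019 (marked ones left out), -0.0067 (median centring) and -0.078 to 0.064; ERK output 0.071 (marked ones left out) and 0.028 to 0.24; ATF4 and stress genes -0.011 to 0.29, G1/S genes -0.78 to -0.17 and sterol genes -0.35 to -0.11 without single arrays.

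Signs turned for KRT19 (0.067), ERBB3 (0.055) and EGFR (0.011) with the mean of probe sets, for EGFR (0.022) with median centring and for CDCA7 (0.46) without marked probe sets. Without single arrays DUSP6 ranged from -0.11 to 0.63, ETV5 from -0.16 to 0.55, MYC from -0.067 to 0.12 and ERBB3 from -0.18 to 0.014. In linear intensity units the mean departure had the other sign for 9 of 73 named genes: CCN5 (648), ERBB3 (265), KLHL24 (76.8), CCNG2 (44.9), ELF3 (19.7), PLK1 (15.6), SPC25 (11.5), CDCA7 (4.35) and DUSP6 (-22.2). The cause of these changes was not tested.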

Other observations

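Genes of cell death departed in both directions. Of 13 measured members of the list labelled BCL2 family and death ligands 7 were positive and 3 negative in both states, with a median of 0.01. Despite that label, its measured members include TRAIL receptors and no death ligand. PMAIP1, the BH3-only protein NOXA, departed by 0.61 with and 0.34 without L-histidinol, and the TRAIL receptor TNFRSF10A by 0.32 with and 0.68 without L-histidinol. BID, a BH3-only protein cleaved downstream of death receptors, departed by -0.43 with and -0.41 without L-histidinol. None passed limma's test (adjusted p = 0.198, 0.339 and 0.33). In the squamous list, IVL, a component of the cornified envelope, departed by -0.53 with and -1.76 without L-histidinol, and the calcium-binding protein S100A9 by -0.63 with and -0.70 without L-histidinol. The neutrophil chemokine CXCL2 departed by 0.66 with and 0.69 without L-histidinol, the serine synthesis enzyme PSAT1 by -0.39 with and -0.37 without L-histidinol, the histone H2BC21 by -0.58 with and -0.37 without L-histidinol and the secreted stress cytokine GDF15 by 0.71 with and 0.47 without L-histidinol. The GDF15 value rests on single arrays: the fitted departure was 0.00063 without the vehicle array with L-histidinol and 1.18 without the vehicle array lacking it.

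At a mean log2 of at least 5, 1 gene passed 0.5 log2 units in both states with opposite signs, POLA2, a subunit of the primase complex (0.54 with L-histidinol, -0.60 without). It was followed by CLSPN, a mediator of the replication checkpoint (0.50 with, -0.93 without), CCT6B (0.52 with, -0.49 without) and the replication licensing factor CDT1 (0.73 with, -0.48 without). These genes were picked out after their values were seen.

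The probe sets with no symbol or several, 13522 in number, were left out of the tests. Their departure had the same sign in both states in 53.3%, and 91 (0.673%) passed 0.5 in both, 19 of them at a mean log2 of at least 5 (3 positive, 16 negative).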
